A study of Mus musculus with 2 samples.

Results

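The genes described are 8 members of the transforming growth factor beta (TGF-beta) and interleukin-10 (IL-10) pathways, followed across the leukocytes of mouse adrenal glands. They were chosen by name, with no threshold on their levels, although earlier results of these data were known: the ligand genes Tgfb1 and Il10, the receptor genes Tgfbr1, Tgfbr2, Il10ra and Il10rb, and the inhibitor genes Smad7 and Ski. All 8 were found in both libraries among the 32285 genes of the deposited tables, of which 20199 had at least 1 unique molecular identifier (UMI, a tag that marks 1 captured RNA molecule) in the cells kept. Another 48 genes of the 2 pathways, listed by role, were measured in the same way.

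TGF-beta is secreted in a latent complex and becomes active after integrins or proteases release it. Active TGF-beta binds the type II receptor encoded by Tgfbr2, which recruits and phosphorylates the type I receptor encoded by Tgfbr1, and the type I receptor phosphorylates Smad proteins that enter the nucleus. IL-10 binds the chain encoded by Il10ra, which pairs with the chain encoded by Il10rb and signals through the kinases Jak1 and Tyk2 to Stat3. In macrophages IL-10 is known to restrain inflammatory genes and antigen presentation, and TGF-beta is known to maintain the identity of several resident macrophages, microglia among them.

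Adrenal glands came from C57BL/6 mice (C57BL/6 J in the study's design text) at 7 weeks of age, and their CD45+ cells, which are leukocytes, were sorted, with no treatment or engineered allele named in the labels. There was 1 library of females and 1 of males, made by droplet single-cell RNA sequencing of transcript 3' ends, and how many animals each library stands for is not given in the sources used here. With 1 library per sex there was no replicate error and no test. The intervals given are 95% exact intervals that cover counting error only, so a female to male difference cannot be told apart from a difference between 2 libraries.

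The female library held 3963 barcodes and 16218309 UMIs and the male library 2685 barcodes and 9512670 UMIs, and 3693 and 2450 cells were kept, with a median of 3491 and 2988 UMIs per cell. Only 2 barcodes occurred in both libraries. Cell classes were rebuilt from marker genes after clustering without the 8 members, and each class name stands for cells that resemble that class. The macrophages, here called adrenal gland macrophages (AGMs), numbered 817 and 795 in the female and male library, beside 301 and 183 monocytes, 696 and 373 T cells, 857 and 370 natural killer (NK) cells, and 516 and 269 B cells. AGMs fell into 92 and 162 Lyve1-high cells, 89 and 102 Aldh1a2-high cells and 636 and 531 other AGMs (clusters 3, 5 and 11). Macrophage markers were high in the other AGMs and in Lyve1-high cells but low in Aldh1a2-high cells, where C1qa reached 487 and 648.5 UMIs per 1000000 UMIs of the class (CPM) against 5667 and 5692 in other AGMs, and Mertk reached 13.8 and 23.3 against 111 and 92.2. Aldh1a2-high cells are therefore named by that gene and not as a macrophage type, although they were counted with the AGMs. RNA of other cells was present in every class. Erythroid genes, 4 in number, summed to 888 and 1001 CPM in NK cells and 147 and 11.9 CPM in T cells, and to between 6.94 and 18.3 CPM in AGMs, monocytes and B cells. C1qa stood at 35.1 and 55.9 CPM in T cells, and 7 adrenal cortex genes summed to 235 and 213 CPM in AGMs against 16.5 and 21.0 in T cells. Endothelial markers summed to 44.9 and 45.3 CPM in AGMs and 108 and 126 CPM in B cells. The part of such RNA in the members' levels was not tested.

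**Figure D1:**
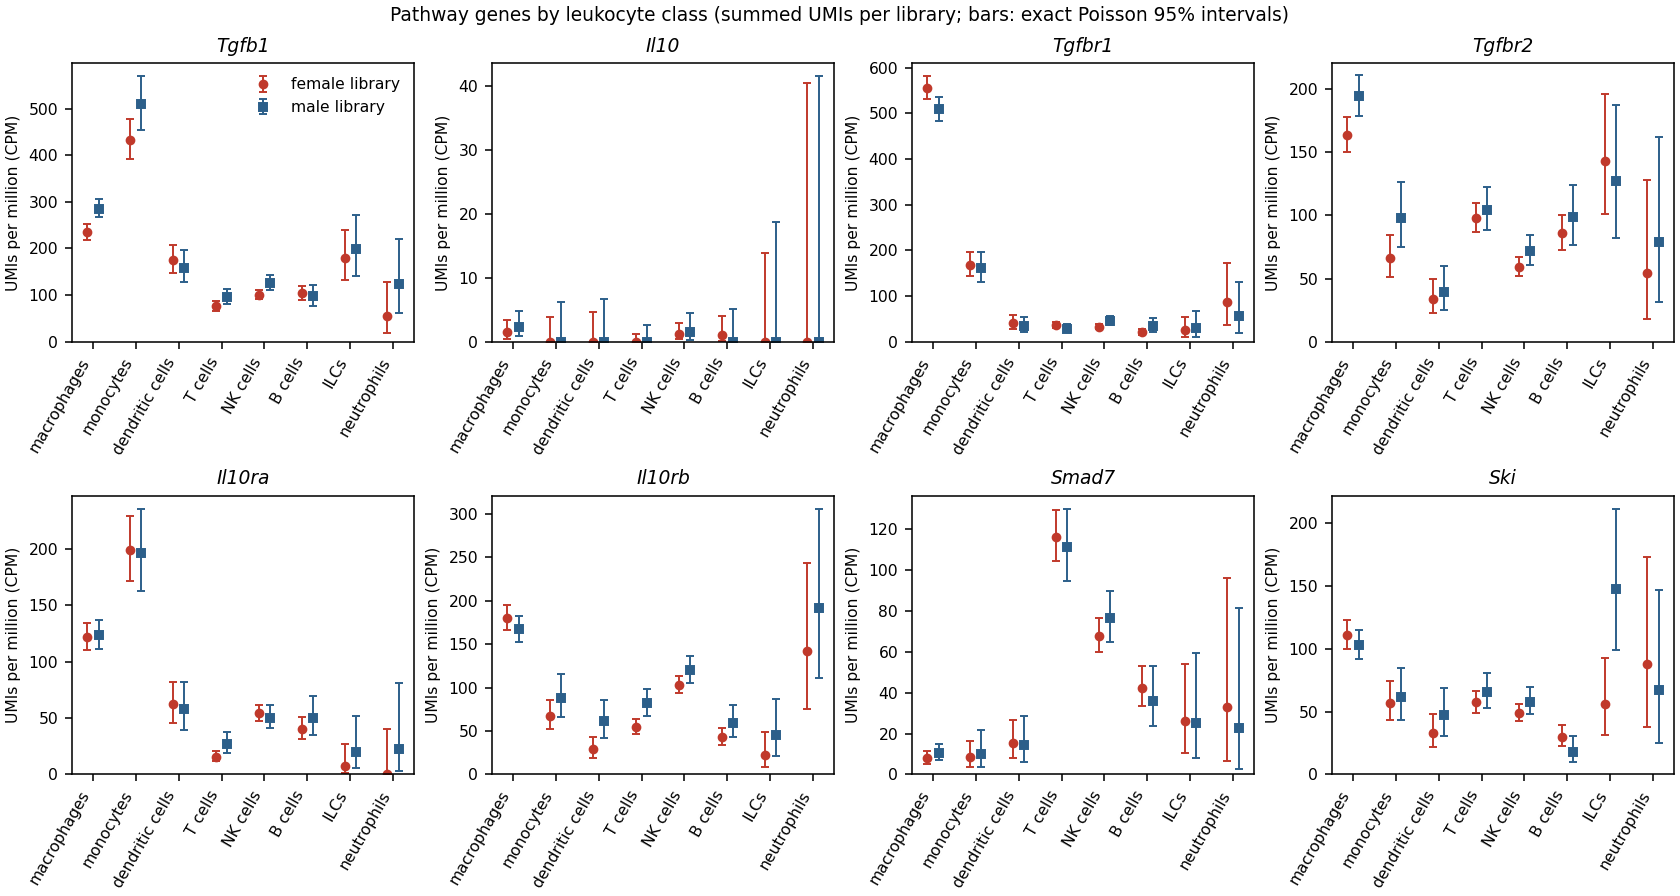
Level of each of the 8 genes in CPM (vertical axes from 0, 1 panel per gene) in leukocyte classes (horizontal axis), with 1 point for the female and 1 for the male library and bars for the 95% exact Poisson interval. Among the classes plotted Tgfbr1 is highest in AGMs, at 555 and 508.5 CPM, Tgfb1 and Il10ra in monocytes, and Smad7 in T cells.

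Each CPM level sums a gene's UMIs over the cells of a class and divides by all UMIs of that class, with the female value first and the male value second. A 3'-end count does not scale with transcript length, but capture differs between transcripts, so levels are compared between cells and not between genes. Shares of cells with a UMI are given after drawing 1000 UMIs per cell, which removes differences in depth and leaves out cells with fewer. As examples of low shares, Il10ra had a UMI in 0 of 35 and 0 of 38 drawn endothelial cells, and before the draw in 13.6% and 10.4% of all 44 and 48, whose median depth was 2292.5 and 2186.5 UMIs. B cells, at a median depth over all B cells of 2216 and 1779 UMIs, held a Tgfbr1 UMI in 2.41% and 1.97% of drawn cells. Whether such UMIs are background RNA or low expression was not tested.

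Of the ligands, Tgfb1 was found in every class and Il10 in almost no cell. Tgfb1 (chromosome 7, 25687002 to 25705077, plus strand, GRCm38, 7 exons in its longest transcript) encodes TGF-beta 1, the main TGF-beta isoform of leukocytes. Its level in monocytes was 433 CPM (393 to 477) and 509 CPM (454 to 570), and in AGMs 235 CPM (219 to 252) and 285 CPM (266.5 to 305). The monocyte level was 1.84 and 1.79 times that of AGMs, and the intervals did not overlap in either library. Classical and nonclassical monocytes, gated by marker genes, differed little in Tgfb1, at 397 and 506 CPM against 478 and 483 CPM.

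Lymphocytes carried less Tgfb1. NK cells held 100.3 and 127 CPM, B cells 104 and 97.1 CPM and T cells 75.9 and 96.4 CPM, while dendritic cells held 175 and 159 CPM and innate lymphoid cells 180 and 198 CPM. In descending mean level the order was monocytes, AGMs, innate lymphoid cells, dendritic cells, NK cells, B cells, neutrophils and T cells. Only the step from monocytes to AGMs was free of overlap in both libraries, and that from dendritic to NK cells overlapped in the male library alone. Against T cells AGMs held 3.10 and 2.96 times the Tgfb1 level, against NK cells 2.35 and 2.25 times, and against B cells 2.26 and 2.94 times.

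Il10 (chromosome 1, 131019845 to 131024974, plus strand, 5 exons) encodes the IL-10 cytokine, and its RNA was at the edge of detection. It gave 12 UMIs in the female and 10 in the male library. AGMs held 5 and 7 of them, which is 1.49 CPM (0.483 to 3.47) and 2.33 CPM (0.938 to 4.81), in 0.490% and 0.755% of cells at full depth. After the draw it was seen in 0 of 778 and 2 of 752 AGMs. NK cells held 5 and 3 UMIs, with 4 and 0 in the gate for tissue-resident NK cells, and B cells 2 and 0.

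No Il10 UMI was found in T cells, monocytes, dendritic cells, innate lymphoid cells or neutrophils of either library. A count of 0 still allows 3 UMIs, which is 1.01 and 2.10 CPM in T cells, 3.11 and 4.99 CPM in monocytes and 3.80 and 5.42 CPM in dendritic cells. Regulatory T cells, a known source of IL-10, were represented by 9 and 2 gated cells, and none held an Il10 UMI. The intervals of all classes overlapped for Il10, so no order among them was detectable at this depth.

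Of the 4 receptor genes, Tgfbr1 had the largest ratios of AGMs to monocytes, T cells, NK cells and B cells. Tgfbr1 (chromosome 4, 47353222 to 47414931, plus strand, 10 exons) encodes the type I receptor kinase that passes the TGF-beta signal to Smad proteins. The promoters of the TGF-beta receptor genes and Tgfb1 are shown as examples, since these genes, among others, differ between classes or AGM subsets. The sequences are from RefSeq on GRCm38.p6 and run from 250 bases before to 50 bases after the annotated start, 5′ to 3′ on the gene's strand. Capitals mark GGGCGG, the core of the SP1 site, or its complement.
Tgfbr1: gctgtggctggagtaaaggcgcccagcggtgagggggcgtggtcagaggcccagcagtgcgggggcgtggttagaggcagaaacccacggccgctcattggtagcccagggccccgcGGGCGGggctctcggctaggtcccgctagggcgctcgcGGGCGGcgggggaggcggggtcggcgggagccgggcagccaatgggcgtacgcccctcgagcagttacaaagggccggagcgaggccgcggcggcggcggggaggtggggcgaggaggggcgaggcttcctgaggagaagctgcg
Tgfbr2: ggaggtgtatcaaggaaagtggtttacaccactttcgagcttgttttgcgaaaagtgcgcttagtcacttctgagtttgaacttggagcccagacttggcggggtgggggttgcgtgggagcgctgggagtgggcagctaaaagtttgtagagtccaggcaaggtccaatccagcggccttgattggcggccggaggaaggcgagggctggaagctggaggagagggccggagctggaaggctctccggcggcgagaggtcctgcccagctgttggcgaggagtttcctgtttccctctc
Tgfb1: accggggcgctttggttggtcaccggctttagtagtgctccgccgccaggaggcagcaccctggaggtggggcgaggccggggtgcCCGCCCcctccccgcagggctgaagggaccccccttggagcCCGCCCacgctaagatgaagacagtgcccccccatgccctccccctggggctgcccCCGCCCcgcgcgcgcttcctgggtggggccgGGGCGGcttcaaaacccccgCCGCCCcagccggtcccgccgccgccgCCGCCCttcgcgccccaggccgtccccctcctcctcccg

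The first sequence is chr4:47352972-47353271 on the plus strand, the second chr9:116175314-116175613 on the minus strand and the last chr7:25686752-25687051 on the plus strand. Both strands were searched for GGGCGG (SP1), GAGGAAGT (PU.1), CCGGAAGT (ETS factors), TGANTCA (AP-1) and GTCTAGAC (the Smad palindrome), which occur in 35.7%, 3.20%, 3.89%, 7.81% and 0.213% of the 32851 RefSeq promoters of this length. GGGCGG was the only match in these windows, 2 times in Tgfbr1 (at -133 and -95 from the start), 6 times in Tgfb1 and in no place in Tgfbr2. The Ski promoter also held 6 matches, and the second annotated start of Tgfbr1 held none. GC content was 74.7% in Tgfbr1, 59.0% in Tgfbr2, 77.0% in Tgfb1 and 85.3% in Ski, and 4.17%, 31.9%, 2.43% and 0.0944% of promoters were at least as rich. A match describes these letters only. For Il10, Il10ra, Il10rb and Smad7 no promoter is shown.

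In AGMs Tgfbr1 stood at 555 CPM (530 to 581) and 508.5 CPM (483 to 535), from 1868 and 1526 UMIs. Monocytes held 168 CPM (143 to 196) and 161 CPM (131 to 197). AGMs thus held 3.31 times (2.81 to 3.91) and 3.15 times (2.56 to 3.91) the monocyte level.

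Among monocytes the nonclassical gate held Tgfbr1 at 187 and 188 CPM, from 66 and 58 UMIs. The classical gate held 115 and 100.2 CPM, from 54 and 21 UMIs, and the intervals of the gates overlapped in both libraries. Lymphocytes were far lower: T cells held 36.4 and 28.7 CPM, NK cells 32.3 and 45.1 CPM and B cells 20.3 and 34.7 CPM. The AGM level was 15.2 and 17.8 times that of T cells, 17.2 and 11.3 times that of NK cells and 27.3 and 14.7 times that of B cells. A Tgfbr1 UMI was drawn in 36.9% and 32.0% of AGMs, 17.2% and 16.5% of monocytes, and 3.09% and 0.552% of T cells. From AGMs through monocytes, neutrophils, NK cells, dendritic cells, T cells and innate lymphoid cells to B cells, the order was separated without overlap only at its first step.

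Tgfbr2 (chromosome 9, 116084293 to 116175360, minus strand, 8 exons) encodes the type II receptor, which binds the ligand first, and it was spread more evenly. AGMs held 163.5 CPM (150.1 to 178) and 194 CPM (179 to 211). T cells held 97.9 and 104 CPM, B cells 85.8 and 98.5 CPM, monocytes 66.3 and 98.2 CPM and NK cells 59.3 and 71.8 CPM. Innate lymphoid cells, at 143 and 127 CPM, were the class nearest to AGMs.

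The AGM level of Tgfbr2 was 2.47 and 1.98 times that of monocytes, 1.67 and 1.87 times that of T cells, 2.76 and 2.71 times that of NK cells and 1.91 and 1.97 times that of B cells. In the order AGMs, innate lymphoid cells, T cells, B cells, monocytes, neutrophils, NK cells and dendritic cells, neighbours overlapped in at least 1 library except NK and dendritic cells. Within T cells the CD4 gate held 155 and 126 CPM and the CD8 gate 100.4 and 119 CPM. Within NK cells the tissue-resident gate held 77.7 and 83.1 CPM and the circulating gate 35.5 and 61.1 CPM.

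Signalling needs both TGF-beta receptor chains in the same cell. After the draw, both Tgfbr1 and Tgfbr2 were seen in 48 of 778 female AGMs (6.17%) and 37 of 752 male AGMs (4.92%), close to the 5.50% and 5.54% given by the product of the single shares. In monocytes both were seen in 2.24% and 1.76% of cells, and in T cells in 0.294% and 0%. Before the draw, at the cells' full depth, 34.1% and 25.5% of AGMs held both.

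Il10ra (chromosome 9, 45253837 to 45269149, minus strand, 7 exons) encodes the chain that binds IL-10 and, like Tgfb1, was highest in monocytes among the 8 classes ordered. The level was 199 CPM (172 to 229) and 196 CPM (162.5 to 235) in monocytes and 122 CPM (111 to 135) and 124 CPM (111 to 137) in AGMs. Monocytes thus held 1.63 and 1.59 times the AGM level, with no overlap of intervals. Nonclassical monocytes held 226 and 207 CPM and classical monocytes 171 and 157 CPM.

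Below these came dendritic cells at 62.0 and 57.8 CPM, NK cells at 54.1 and 50.3 CPM, B cells at 40.6 and 49.9 CPM, T cells at 15.9 and 27.3 CPM, innate lymphoid cells at 7.51 and 20.3 CPM and neutrophils at 0 and 22.5 CPM. The steps from monocytes to AGMs and from AGMs to dendritic cells had no overlap, that from B to T cells overlapped in males alone, and the others overlapped in both libraries. AGMs held 7.70 and 4.54 times the Il10ra level of T cells, 2.26 and 2.46 times that of NK cells and 3.01 and 2.48 times that of B cells. An Il10ra UMI was drawn in 20.9% and 18.8% of monocytes and 10.7% and 11.2% of AGMs.

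Il10rb (chromosome 16, 91406164 to 91425834, plus strand, 7 exons) encodes the partner chain, which other cytokines of the IL-10 family and type III interferons also use. Its level was 180.1 CPM (166 to 195) and 167 CPM (153 to 183) in AGMs. Neutrophils, from 13 and 17 UMIs, held 142 and 191 CPM, and NK cells held 103 and 120 CPM. Monocytes were lower, at 67.4 and 88.2 CPM, in contrast to Il10ra.

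T cells held 55.0 and 81.8 CPM of Il10rb, B cells 42.9 and 59.7 CPM, dendritic cells 29.1 and 61.4 CPM and innate lymphoid cells 22.5 and 45.7 CPM. The AGM level was 2.67 and 1.90 times that of monocytes, 3.27 and 2.05 times that of T cells, 1.75 and 1.39 times that of NK cells and 4.20 and 2.80 times that of B cells. Along the order AGMs, neutrophils, NK cells, monocytes, T cells, B cells, dendritic cells and innate lymphoid cells, every pair of neighbours overlapped in at least 1 library. Both IL-10 receptor chains were drawn together in 1.93% and 2.79% of AGMs and in 0.746% and 1.76% of monocytes.

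The inhibitors split between classes. Smad7 (ENSMUSG00000025880) encodes the inhibitory Smad that blocks the type I receptor and is itself induced by TGF-beta. Among the 8 classes ordered it was highest in T cells, at 116 CPM (104 to 129) and 111 CPM (94.5 to 130), and in NK cells it stood at 67.8 and 76.4 CPM. AGMs held 27 and 32 UMIs, which is 8.03 CPM (5.29 to 11.7) and 10.7 CPM (7.29 to 15.05), and monocytes 8.29 and 9.98 CPM.

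The T cell level of Smad7 was 14.5 times (9.77 to 22.3) and 10.4 times (7.09 to 15.8) that of AGMs, and the NK cell level 8.44 and 7.17 times. Under a ceiling of 1.2% mitochondrial UMIs, which left few cells, the ratio of AGMs to T cells in females was 0.762 (0.0397 to 44.9). The CD8 gate held 155 and 147 CPM and the CD4 gate 100.3 and 69.8 CPM. B cells held 42.3 and 36.1 CPM, and the order T cells, NK cells, B cells, neutrophils, innate lymphoid cells, dendritic cells, AGMs and monocytes was free of overlap at its first and second steps only.

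Ski (chromosome 4, 155154075 to 155222592, minus strand, 8 exons) encodes a nuclear protein that keeps Smad complexes from activating their targets. AGMs held 111 CPM (99.9 to 123) and 103 CPM (91.5 to 115), T cells 57.4 and 65.7 CPM, monocytes 57.0 and 61.6 CPM and NK cells 48.9 and 57.9 CPM. B cells were lowest of the 8 classes, at 29.9 and 18.0 CPM. Innate lymphoid cells differed between libraries, with 56.3 CPM from 15 UMIs and 147 CPM from 29 UMIs.

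The AGM level of Ski was 1.95 and 1.67 times that of monocytes, 1.93 and 1.56 times that of T cells, 2.27 and 1.77 times that of NK cells and 3.71 and 5.69 times that of B cells. Between AGMs and innate lymphoid cells, which came next in mean level, the intervals overlapped in males alone. All later neighbours (neutrophils, T cells, monocytes, NK cells, dendritic cells, B cells) overlapped in both libraries.

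The members were then read against all genes, counting a gene where it differed at least 2-fold in the same direction in both libraries and had at least 50 UMIs in 1 of the 2 classes in each. Against monocytes 1 of 6 members was higher in AGMs (Tgfbr1) and 0 lower, where 9.09% and 4.51% of 6230 genes tested were higher and lower. Against T cells 4 of 7 were higher (Tgfb1, Tgfbr1, Il10ra, Il10rb) and 1 lower (Smad7), where 21.5% of genes were higher and 8.62% lower. Smad7 in AGMs (27 and 32 UMIs), Il10ra in T cells (47 and 39) and Tgfbr1 in male T cells (41) lay under 50 UMIs. There these genes met the minimum only through the class where they are high, which largely fixes the outcome. Against NK cells 4 of 7 were higher (Tgfb1, Tgfbr1, Tgfbr2, Il10ra) and 1 lower (Smad7), where 17.0% were higher and 11.9% lower. Smad7 was again tested through the class where it is high, here NK cells. Against B cells 5 of 6 were higher (Tgfb1, Tgfbr1, Il10ra, Il10rb, Ski) and 0 lower, where 24.3% were higher and 5.14% lower. B cells held under 50 UMIs of Tgfbr1 (36 and 25) and, in males, of Il10ra (36), Il10rb (43) and Ski (13). These were tested there through AGMs alone, and nothing is read from a count over such genes. With the mean over cells the calls of Tgfb1 (1.78 in females) and Il10ra (1.88 in males) against B cells were lost, and at resolution 2 that of Il10rb against T cells (1.98 in males).

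The median log2 ratio over all genes tested was 0.39 and 0.42 against B cells, -0.20 and -0.14 against NK cells, 0.05 and 0.17 against T cells and 0.06 and 0.07 against monocytes, and the ratios given are not corrected for it. The monocyte count moved with the settings, and Tgfbr2 and Il10rb lay near 2-fold: 4 members (Tgfbr1, Tgfbr2, Il10rb and Ski) passed once the 5 cells with most UMIs of each gene were left out, and 3 (Tgfbr1, Tgfbr2 and Il10rb) once Aldh1a2-high cells were left out, an alternative chosen after seeing the data.

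**Figure D2:**
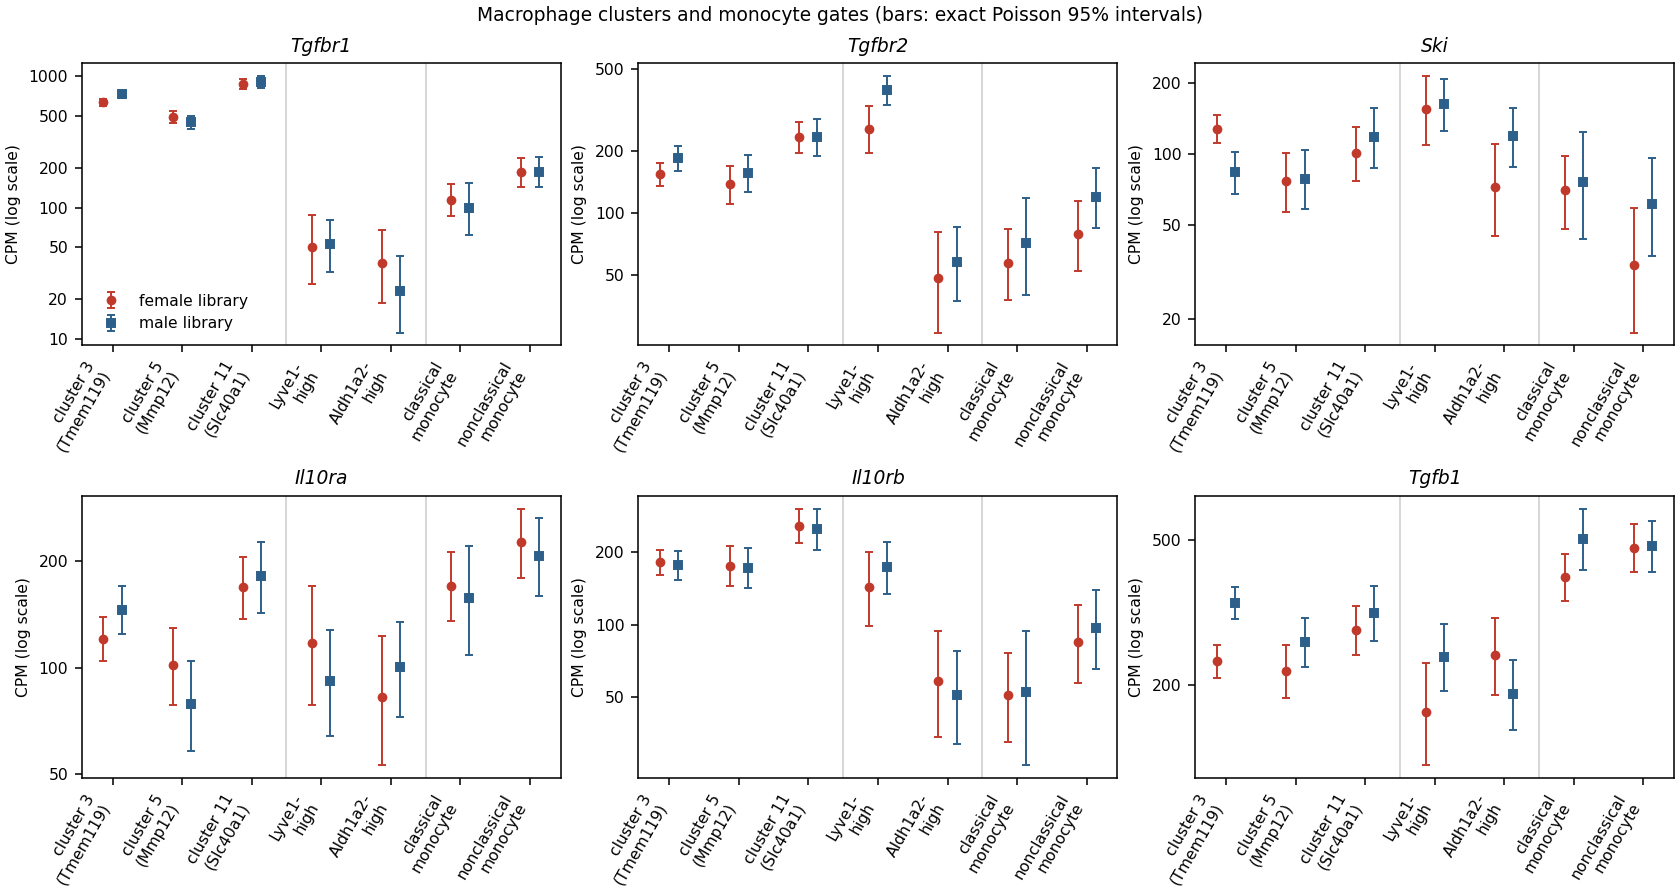
Level of 6 members in CPM (vertical axes, log scale, 1 panel per gene) in the AGM clusters and monocyte gates (horizontal axis) of the female and male library, with 95% exact Poisson intervals as bars. Tgfbr1 is near 50 CPM or lower in Lyve1-high and Aldh1a2-high cells of both libraries and between 446 and 909 CPM in clusters 3, 5 and 11, while the Tgfbr2 points are highest in Lyve1-high cells.

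In Lyve1-high cells the 2 TGF-beta receptor genes went in opposite directions. Lyve1-high cells, led by Folr2, Fcna, Lyve1 and Cd209f, held Tgfbr1 at 50.5 CPM (26.1 to 88.3, 12 UMIs) and 52.6 CPM (32.1 to 81.2, 20 UMIs). Other AGMs held 650.4 CPM (621 to 681) and 683 CPM (648 to 718). The level in Lyve1-high cells was lower by 12.9-fold (7.35 to 24.9) and 13.0-fold (8.37 to 21.3). Without the 5 cells with most UMIs the ratio to other AGMs was 0.0430 and 0.0413, against 0.0777 and 0.0770 with them.

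Tgfbr2 was by contrast higher in Lyve1-high cells, at 257 CPM (196.5 to 330.0) and 394 CPM (334 to 463) against 167 CPM (153 to 183) and 186 CPM (168.5 to 205) in other AGMs. The ratio was 1.53 (1.16 to 2.01) and 2.12 (1.75 to 2.56). After the draw to equal depth, a Tgfbr2 UMI was found in 32.4% and 36.9% of Lyve1-high cells and 14.5% and 15.2% of other AGMs, and a Tgfbr1 UMI in 5.41% and 7.69% against 44.4% and 43.5%. Both receptor chains were drawn together in 0 of 74 and 4 of 130 Lyve1-high cells and in 7.67% and 6.27% of other AGMs.

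Of the remaining members, Smad7 (1 and 2 UMIs in Lyve1-high cells) and Il10 (2 and 2) had too few UMIs to be tested, and the ratio of Lyve1-high cells to other AGMs was 0.478 (0.0116 to 2.92) and 0.384 (0.0445 to 1.51) for Smad7 and 7.96 (0.665 to 69.5) and 2.31 (0.22 to 14.1) for Il10. Ski stood at 156 and 163 CPM against 111 and 89.0 CPM, a ratio of 1.40 (0.970 to 1.98) and 1.83 (1.35 to 2.45). Tgfb1 stood at 168 and 239 CPM against 240 and 312 CPM, a ratio of 0.702 and 0.767. For Il10ra the ratio was 0.932 and 0.688 and for Il10rb 0.732 and 0.919.

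By the 2-fold rule 0 of 6 members were higher and 1 (Tgfbr1) lower in Lyve1-high cells, where 5.59% of 5119 genes tested were higher and 5.78% lower. Tgfbr1, with 12 and 20 UMIs in Lyve1-high cells, was tested through other AGMs alone. That largely fixes the outcome, and nothing is read from the count. Lyve1-high cells were shallow (median depth 1765 and 1886.5 UMIs per cell, where other AGMs had 3963.5 and 3474). Under a ceiling of 1.2% mitochondrial UMIs, which left 327 female and 359 male cells in all, the male ratio of Tgfbr1 turned to 2.75 (0.736 to 7.25), from 1840 CPM (501 to 4711) in the few Lyve1-high cells left. This ceiling, named in the study's methods, may refer to another scale than the percentage computed here.

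Aldh1a2-high cells, led by Lyz1, Retnla and Fn1, were low in both TGF-beta receptors. Tgfbr1 stood at 38.0 CPM from 11 UMIs and 23.3 CPM from 10 UMIs, lower than in other AGMs by 17.1-fold and 29.3-fold. Without the 5 cells with most UMIs the ratio to other AGMs was 0.0185 and 0.00383, against 0.0584 and 0.0342 with them. Tgfbr2 stood at 48.3 and 58.3 CPM, lower by 3.47-fold and 3.19-fold, and Il10rb at 58.7 and 51.3 CPM, lower by 3.33-fold and 3.68-fold. Il10ra, at 82.8 and 100.3 CPM, had a ratio of 0.654 and 0.750.

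The Tgfb1 level of Aldh1a2-high cells was 242 and 189 CPM, a ratio to other AGMs of 1.01 and 0.605, and their Ski level was 72.5 and 119 CPM, a ratio of 0.653 and 1.34. Thus 3 of 6 members were lower (Tgfbr1, Tgfbr2, Il10rb) and 0 higher, where 10.8% of 5131 genes tested were lower and 6.68% higher. In Aldh1a2-high cells these 3 had under 50 UMIs (11 and 10, 14 and 25, 17 and 22) and were tested through other AGMs alone. That largely fixes the outcome, and nothing is read from the count. The low C1qa and Mertk levels of these cells moved with their low receptor levels, and the part of cell identity in this was not tested.

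The other AGMs were themselves uneven. Cluster 11, led by Ms4a7 and Slc40a1, held the most Tgfbr1 at 874 and 909 CPM, against 632.5 and 728 CPM in cluster 3 (led by AA467197, C1qa and Tmem119) and 491 and 446 CPM in cluster 5 (led by Mmp12, Wfdc17 and Aif1). The Tgfbr2 values had the same order, at 233 and 234.5, 155 and 185, and 138.5 and 156 CPM. The Il10ra values did as well, at 169 and 181, 121 and 146, and 102 and 79.0 CPM. For both genes the intervals of neighbouring clusters overlapped in at least 1 library. Il10rb was also highest in cluster 11, at 257 and 249 CPM.

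The 6 members tested in AGMs differed by less than 1.5-fold between the libraries. Tgfb1 was lower in females, with a ratio of 0.824 (0.747 to 0.909), as was Tgfbr2 with 0.842 (0.748 to 0.947), and Tgfbr1 was higher with 1.09 (1.02 to 1.17). Il10ra stood at 0.988 (0.857 to 1.14), Il10rb at 1.08 (0.955 to 1.21) and Ski at 1.08 (0.926 to 1.26). By these values 0 of 6 members tested reached 1.5-fold, where 6.48% of 6869 genes tested did. Too few UMIs were found to test Smad7, with 27 and 32 UMIs and a ratio of 0.753 (0.434 to 1.30), or Il10, with 5 and 7 UMIs and a ratio of 0.637 (0.160 to 2.33). Under the 1.2% mitochondrial ceiling Tgfbr1 turned to 0.923 (0.655 to 1.29) and Tgfbr2 to 1.12 (0.652 to 1.89), and Tgfb1, at 0.659 (0.431 to 0.983), passed 1.5-fold.

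These ratios mix subsets that differ in number between the libraries. Within other AGMs the Tgfb1 ratio was 0.769 (0.691 to 0.857), the Tgfbr1 ratio 0.953 (0.890 to 1.02), the Tgfbr2 ratio 0.900 (0.786 to 1.03) and the Ski ratio 1.25 (1.04 to 1.5). Among the other AGMs high in MHC class II the Ski ratio was 1.04 (0.847 to 1.28). By cluster the Ski ratio was 1.53 (1.2 to 1.97) in cluster 3, 0.974 (0.644 to 1.48) in cluster 5 and 0.856 (0.577 to 1.27) in cluster 11, and the difference between clusters was not tested. The Tgfbr1 ratio was 0.868 (0.792 to 0.953) in cluster 3, 1.1 (0.933 to 1.296) in cluster 5 and 0.961 (0.84 to 1.101) in cluster 11. Within Lyve1-high cells the Tgfbr2 ratio was 0.651 (0.476 to 0.883), from 61 and 150 UMIs. Among the Lyve1-high cells high in MHC class II it was 0.768 (0.522 to 1.115), and their Tgfb1 ratio was 0.540 (0.322 to 0.876) from 23 and 70 UMIs. Among other AGMs low in MHC class II, only 20 cells in males, Tgfb1 had 0.582 (0.376 to 0.937) and Il10rb 0.593 (0.387 to 0.945). There Il10ra had 0.733, Tgfbr1 1.06, Tgfbr2 1.28 and Ski 2.29, with intervals that span 1.

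In monocytes 0 of 6 members reached 1.5-fold between libraries, where 7.16% of 2792 genes did, and the ratio of Tgfb1 was 0.851 (0.732 to 0.989) and that of Tgfbr2 0.676 (0.467 to 0.979). In T cells 0 of 6 did against 4.94% of genes, with 0.787 (0.634 to 0.980) for Tgfb1 and 0.673 (0.527 to 0.861) for Il10rb, which passed 1.5-fold with at least 1000 UMIs per cell (0.663) and at resolution 2 (0.657). Il10ra in T cells, with 47 and 39 UMIs too few to be tested, had a ratio of 0.582 (0.373 to 0.914), and with doublets kept it was tested and passed at 0.656. In NK cells 0 of 7 did against 4.68% of genes, with 0.792 (0.674 to 0.931) for Tgfb1 and 0.715 (0.541 to 0.948) for Tgfbr1. In B cells 1 of 6 did against 7.71% of genes, and this was Ski, with 1.66 (0.892 to 3.32) from 53 and 13 UMIs. Ski was tested there through the female library alone, where it was higher, and its interval spans 1, so nothing is read from it. The call was lost with the mean over cells (1.46), and without the 5 cells with most UMIs the ratio was 2.83.

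The Tgfb1 ratio was below 1 in AGMs, monocytes, T cells and NK cells, 1.07 in B cells, 1.10 (0.835 to 1.45) in dendritic cells and 1.28 (0.915 to 1.78) in Aldh1a2-high cells. Of the other classes and of the gates, Ski in innate lymphoid cells had a ratio of 0.383 (0.191 to 0.737), and Il10rb had 0.474 (0.267 to 0.829) in dendritic cells and 0.534 (0.343 to 0.834) in the CD8 T cell gate.

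**Figure D3:**
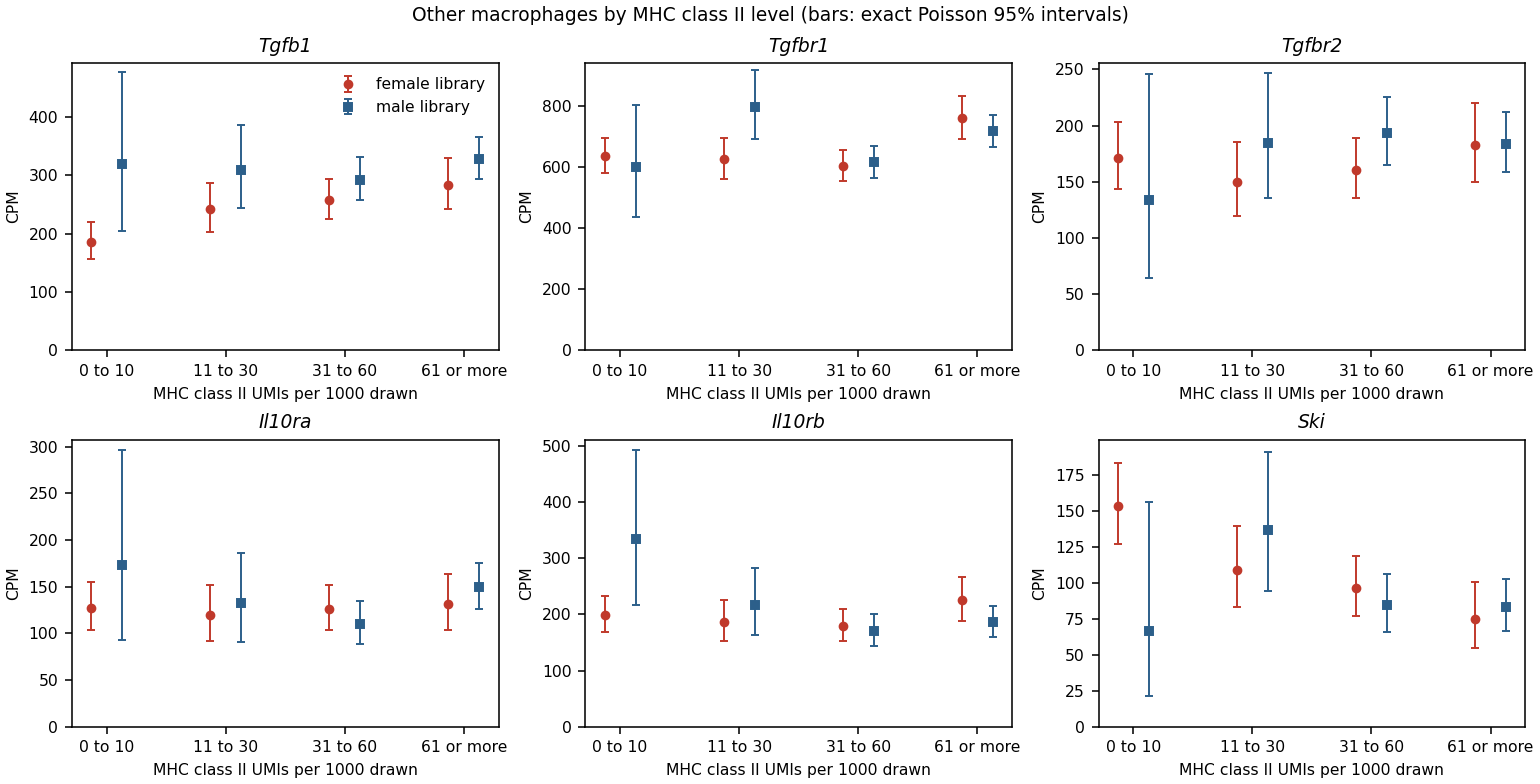
Level of 6 members in CPM (vertical axes from 0) in other AGMs binned by MHC class II UMIs among 1000 drawn (horizontal axis), for each library, with 95% exact Poisson intervals as bars. In females Ski goes from 153 CPM in the lowest bin to 75.0 CPM in the highest and Tgfb1 from 186 to 283 CPM.

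The study separates AGMs by MHC class II, the molecules that present antigen to CD4 T cells. Other AGMs were accordingly split at 10 UMIs per 1000 drawn, summed over Cd74, H2-Eb1, H2-Ab1 and H2-Aa, which gave 169 low and 457 high cells in females (27.0% low) and 20 low and 506 high cells in males (3.80% low). In females Ski stood at 153 CPM in MHC class II low and 93.6 CPM in high cells, a ratio of 1.63 (1.29 to 2.07), and Tgfb1 at 186 and 261 CPM, a ratio of 0.715 (0.591 to 0.861). Over all other AGMs the receptor ratios were 0.973 for Tgfbr1, 1.04 for Tgfbr2, 1.01 for Il10ra and 1.02 for Il10rb.

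Over 4 bins of increasing MHC class II in females, Ski stood at 153, 109, 96.3 and 75.0 CPM and Tgfb1 at 186, 242, 258 and 283 CPM. The male library showed no such order, with Ski at 66.8, 136.5, 84.4 and 83.1 CPM and Tgfb1 at 321, 309, 293 and 328 CPM, but its lowest bin held only 5 Ski UMIs. Of the 6 members tested in females 1 (Ski) differed at least 1.5-fold, where 12.5% of 4787 genes did. With a ceiling of 5% mitochondrial UMIs the Ski ratio was 1.44 (1.11 to 1.85) and no member passed. With the 1.2% ceiling Ski fell to a ratio of 1.12 (0.322 to 4.03) and the Tgfb1 ratio turned to 1.92 (0.724 to 5.61), with too few UMIs of either to be tested.

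Low cells were not spread evenly over clusters, and within cluster 3 the female ratio of Ski was 1.56 (1.17 to 2.07) and that of Tgfb1 0.719. Tgfbr2 had 1.35 (1.04 to 1.75) in cluster 3 and 0.665 (0.307 to 1.29) in cluster 5, and Il10ra 1.29 (0.964 to 1.74) and 0.626 (0.241 to 1.37), with intervals that overlap between the clusters, and the difference was not tested. In males Il10rb stood at 334 CPM in low and 184 CPM in high cells, a ratio of 1.82 (1.16 to 2.73), which was 1.15 without the 5 cells with most of its UMIs. The mean over cells, in which each cell counts alike, gave 0.904 for the female Tgfb1 ratio.

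The 48 other pathway genes were counted by the same rules. Against monocytes 4 of 21 tested were higher in AGMs and 1 was lower (9.09% and 4.51% of all genes tested), against T cells 10 of 21 and 1 (21.5% and 8.62%), against NK cells 9 of 24 and 3 (17.0% and 11.9%), and against B cells 10 of 21 and 0 (24.3% and 5.14%). A gene with 50 UMIs in only 1 of the 2 classes is tested through the class where it is high, so the outcome for such a gene is largely fixed. Against monocytes this holds for all 4 genes that were higher (Acvrl1, Eng, Mmp14 and Pmepa1), and nothing is read from that count. Among the genes of TGF-beta latency and activation this holds for Mmp14 and Thbs1 against lymphocytes, and for Itgav and Furin against B cells. Of that list 5 of 12 were tested in each comparison, and nothing is read from the count over it. The same limit holds for Acvrl1, Eng, Tgfbi and Il1rn against T, NK and B cells, and for Pmepa1 against B cells. In the male library it also holds for Nrros against T, NK and B cells and for Pmepa1 against NK cells. Nothing is read from the counts of higher genes against T, NK and B cells. Smad3 and Nfil3 were tested against NK cells through NK cells alone. The Smad carriers and the carriers of the IL-10 signal were higher in none of these comparisons. No gene of the TGF-beta ligands Tgfb2 and Tgfb3, of the other IL-10 family ligands or of the other receptor chains of that family had enough UMIs to be tested.

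Pmepa1, a TGF-beta target that feeds back on Smad signalling, stood furthest apart from monocytes, at 284.5 and 244 CPM in AGMs against 6.22 and 3.33 CPM, from 6 and 2 monocyte UMIs (a ratio of 45.8, 20.9 to 125, and 73.3, 20.2 to 606). It was 7.80 and 5.13 times higher than in T cells, 10.9 and 15.3 times higher than in NK cells and 15.8 and 17.6 times higher than in B cells. Tgfbi, an extracellular matrix protein induced by TGF-beta, did not separate AGMs from monocytes, at 443 and 437 CPM against 474 and 524 CPM, but was 101 and 36.8 times higher than in T cells, 99.1 and 42.6 times higher than in NK cells and 71.4 and 63.0 times higher than in B cells.

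Acvrl1, another type I receptor of the TGF-beta family, stood at 98.7 and 108 CPM in AGMs and was 2.98 and 2.16 times higher than in monocytes, 41.8 and 22.1 times higher than in T cells and, from 3 and 2 B cell UMIs, 58.3 (19.8 to 284) and 38.9 (10.7 to 323) times higher than in B cells. NK cells held 4 and 1 Acvrl1 UMIs, for a ratio of 99.4 (38.5 to 367) and 210.5 (37.5 to 8341). Eng, a co-receptor, stood at 21.7 CPM in AGMs of both libraries, 2.62 (1.26 to 6.29) and 4.34 (1.42 to 21.6) times the monocyte level, 5.84 and 7.75 times the T cell level and 17.5 and 10.6 times the NK cell level, and B cells held 3 and 0 UMIs of it.

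Nrros, which anchors latent TGF-beta on macrophages, stood at 127 and 143 CPM in AGMs and 156.5 and 186 CPM in monocytes, and AGMs held 6.17 and 7.07 times the T cell level, 4.45 and 6.21 times the NK cell level and 2.88 and 4.70 times the B cell level. Itgav, the integrin alpha chain that helps to release TGF-beta, was 4.02 and 5.33 times higher than in T cells and 6.83 and 18.8 times higher than in B cells. Mmp14, a membrane protease, had 110 and 99 UMIs in AGMs, 3 and 3 in monocytes (a ratio of 10.5, 3.51 to 51.8, and 6.61, 2.20 to 32.6), 0 and 0 in NK cells and 1 and 5 in B cells, and AGMs held 10.8 and 7.87 times the T cell level.

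Thbs1, an activator of latent TGF-beta, had 59 and 57 UMIs in AGMs, 2 and 0 in T cells and 0 in NK and B cells of both libraries. Furin, a protease that cleaves the TGF-beta precursor, was 2.69 and 2.84 times higher in AGMs than in B cells, and Tgif1, a repressor of Smad targets, was 4.11 and 5.14 times higher than in T cells and 4.88 and 4.67 times higher than in NK cells. Il1rn, an antagonist of interleukin-1 receptors that IL-10 induces, had 70 and 95 UMIs in AGMs, 0 in T and B cells of both libraries and 0 and 2 in NK cells. Of its AGM UMIs, 43 and 86 lay in Aldh1a2-high cells. A count of 0 allows 3 UMIs, which is 0.745 and 1.54 CPM in NK cells and 1.69 and 4.16 CPM in B cells.

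Of the 3 carriers of the IL-10 signal, Stat3 was lower in AGMs than in monocytes and Jak1 lower than in T and NK cells. Stat3, the transcription factor activated by IL-10 receptors, stood at 72.8 and 80.3 CPM in AGMs and 170.0 and 230 CPM in monocytes, a ratio of 0.429 and 0.350. Jak1, the kinase bound to Il10ra, stood at 142 and 126 CPM against 386 and 378 CPM in T cells and 504 and 523 CPM in NK cells, a ratio of 0.369 and 0.333 and of 0.282 and 0.241, while monocytes were level with AGMs at 142 and 138 CPM. Against NK cells Smad3, a carrier of the TGF-beta signal, had a ratio of 0.319 and 0.341 and Nfil3, a transcription factor that IL-10 induces in macrophages, 0.211 and 0.158.

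Of the genes that did not pass, Skil, a relative of Ski, stood at 163 and 104 CPM in AGMs and had a ratio of 1.38 and 0.933 to monocytes, 2.90 and 1.73 to T cells, 1.88 and 1.28 to NK cells and 2.67 and 1.70 to B cells. Stat3 was near T cells, with 1.2 and 0.991.

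In Lyve1-high cells 18 pathway genes were tested, of which 1 was higher and 5 were lower than in other AGMs (5.59% and 5.78% of all genes tested). Nrros was higher, by 2.28 and 2.04 times. Pmepa1, at 25.3 and 15.8 CPM against 334 and 327 CPM, had a ratio of 0.0757 (0.0277 to 0.165) and 0.0482 (0.0176 to 0.105). Skil had 0.225 and 0.259, Acvrl1 0.233 and 0.339, Itgav 0.401 and 0.0982, and Mmp14 gave 0 and 1 UMIs in Lyve1-high cells against 108 and 96. Tgfbi, which did not pass, had 1.26 and 1.35, and Jak1 1.57 and 1.96. Of the 3 genes tested among those known to be induced by TGF-beta, Pmepa1 and Skil were lower and Tgfbi was not. All 5 lower pathway genes were tested through other AGMs alone, which largely fixes their outcome. Nothing is read from the count of lower genes or from this list.

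In Aldh1a2-high cells 4 of the 18 were higher and 4 lower (6.68% and 10.8% of all genes tested). Furin (3.40 and 3.38), Tyk2, a kinase bound to Il10rb (3.32 and 2.12), Stat3 (2.08 and 2.90) and Nrros (2.09 and 2.47) were higher, and Pmepa1 (0.0414 and 0.0642), Skil (0.111 and 0.177), Mmp14 (0.181 and 0.107, from 2 and 2 UMIs) and Tgif1 (0.361 and 0.374) lower. Pmepa1, Skil and Mmp14 were again tested through other AGMs alone, which largely fixes their outcome, and nothing is read from the count of lower genes. Of the genes not passing, Tgfbi had 0.940 and 0.871 and Jak1 1.53 and 1.81.

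Between MHC class II low and high cells of females, 3 of 17 pathway genes differed at least 1.5-fold, where 12.5% of all genes tested did. Pmepa1 stood at 548 and 250.5 CPM, a ratio of 2.19 (1.92 to 2.49), and the male ratio was 2.12 (1.56 to 2.83). Smurf2, a ubiquitin ligase that Smad7 brings to the receptor, had 2.08 (1.35 to 3.19), and Acvrl1 0.665 (0.495 to 0.882). Tgfbi had 1.36 and Skil 1.32.

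Between the libraries, 3 of 22 pathway genes reached 1.5-fold in AGMs (6.48% of all genes tested did): Skil with 1.56 (1.36 to 1.80), Bcl3, an IL-10-induced nuclear cofactor, with 0.552, and Il1rn with 0.657, most of whose UMIs came from Aldh1a2-high cells. In monocytes Thbs1 (1.87) and Sbno2, an IL-10-induced corepressor (0.635), did so among 11 tested (7.16% of all genes), in T cells Tgif1 (1.5) and Itgae, the integrin alpha chain of tissue-resident T cells (1.51), among 17 (4.94%), in NK cells Pmepa1 (1.64) among 18 (4.68%), and in B cells none of 10 (7.71%).

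Finally, the genes whose class pattern was most like that of each member were found by Pearson's r of log2(CPM + 10) over 12 points, which are 6 classes in 2 libraries. The points share libraries and depth, so r is a description only. The closest to Tgfb1 were Flna (0.982), Cd300lb (0.980) and Xbp1 (0.979), to Tgfbr1 Cd93, Tmem86a and Rnase4 (0.983 each), and to Tgfbr2 Ano6 (0.911), Ddrgk1 (0.885) and Rnf103 (0.883). The closest to Il10ra were Ggta1 (0.988), Xbp1 (0.977) and Fndc3b (0.972), and to Il10rb Tmem37 (0.914), Nhlrc3 (0.909) and Map1s (0.906). Smad7 was closest to Il27ra (0.990), Satb1 (0.986) and Slain1 (0.978), and Ski to Galc (0.953), Maf (0.944) and Tmem230 (0.941). Il10 was too sparse for this measure.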

How the data were processed

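Counts deposited by the authors were used: UMI counts per gene and barcode, made with Cell Ranger on mm10 according to the submitters' processing notes from which the study's methods removed noise by a knee-inflection approach. Whether the tables had passed it is not stated, and every barcode in them held at least 500 UMIs. Cells with at least 200 genes and at most 15% mitochondrial UMIs were kept (the study's stated ceiling of 1.2% would leave 327 female and 359 male cells, far fewer than the study kept, so it may be on another scale and was used only as an alternative). Doublets were scored with Scrublet in scanpy 1.11.5. Its automatic threshold marked 2 and 10 barcodes, so the highest scores at 0.8% per 1000 cells were removed, 124 and 52 barcodes. Clustering used sctransform 0.4.2 within Seurat 5.3.0 (2000 features, 20 components, resolution 1, R 4.3.3) without 72 genes that include the 8 members, and classes were named from marker lists by a rule set after the clusters were seen. A shallow cluster of 70 and 141 cells and a proliferating cluster stayed unnamed.

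UMIs were summed per class and library and divided by the class total (CPM), with exact Poisson, Clopper-Pearson and conditional binomial 95% intervals (SciPy 1.17.1). PCR copies share a UMI, so UMIs count molecules. Female to male ratios were tested against 1.5-fold and class ratios against 2-fold in both libraries, for genes with at least 50 UMIs. No p-value was computed, since each sex had 1 library. A count of 0 was taken to allow 3 UMIs. Scripts were tested on simulated data. The members and lists were chosen with earlier results of these data known. Named are the 8 members, every pathway gene past a threshold and the 2 with most AGM UMIs among those that did not pass. Alternatives changed the mitochondrial ceiling, depth minimum, doublet removal, resolution, class gate, averaging, the 5 cells with most UMIs, the draw and the MHC class II threshold. Gene models were from GENCODE vM21 and promoters from RefSeq, both GRCm38. Gene overlaps (Il10ra with Mir7086 and Gm20612, Il10rb with Gm21970) could affect counts.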

Additional observations from a re-analysis of the deposited data

Results flagged for a closer look

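The female to male ratio of Tgfbr1 was 1.09 in AGMs and 0.715 in NK cells, with intervals on opposite sides of 1, and the difference between these ratios was not tested. Within other AGMs the ratio was 0.953, and within their cluster 3 it was 0.868 (0.792 to 0.953).

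The shallow cluster that was given no name, at a median depth of 798 and 669 UMIs, held Tgfbr1 at 1337 CPM in the female and 2343 CPM in the male library, above every named class. Its cells entered no comparison except the alternative that counts them as AGMs.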

How the results depend on the processing

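No paired analysis was possible because each sex had 1 library. Of 36 class ratios past 2-fold in a library, 36 stayed past it under most settings, 35 at resolution 2, 34 with the mean over cells, and 22 of the 27 that could be computed under the 1.2% mitochondrial ceiling. That ceiling reversed the male Lyve1-high ratio of Tgfbr1 to 2.75. With it 1 member (Tgfb1) passed between the sexes in AGMs, 1 was higher and 0 were lower against T cells, 1 higher and 0 lower against NK cells and 1 higher against B cells, with fewer members testable and some ratios under 2-fold (Smad7 to T cells, females, 0.762; Il10rb to T cells, males, 1.19; Tgfbr2 to NK cells, females, 1.5). Members higher in AGMs than in monocytes numbered 2 under the 5% ceiling, 2 with the marker gate, 2 with the mean over cells, 4 without the 5 cells with most UMIs and, in alternatives chosen after seeing the data, 3 without the Aldh1a2-high cluster and 2 with the shallow cluster counted. Between the sexes 1 member passed in monocytes with at least 1000 UMIs, with doublets kept or with the mean over cells, 1 in T cells with at least 1000 UMIs (Il10rb), with doublets kept (Il10ra) or at resolution 2 (Il10rb), and 0 in B cells under the 5% ceiling or without the 5 cells with most UMIs, where Ski had too few UMIs to be tested but ratios of 1.61 and 2.83. With the mean over cells Ski had 1.46 there. Against B cells 3 were higher with the mean over cells (Tgfbr1, Il10rb and Ski). For MHC class II 0 passed under the 5% ceiling and 2 (Tgfb1 and Ski) at resolution 2. The cause was not tested. Depth limits Il10 most, since 22 UMIs in all cannot order classes. The MHC class II split was not run under the marker gate.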

Other observations

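Cells outside the leukocyte classes compared also carried these genes. Endothelial cells (44 and 48 cells) held Tgfb1 at 403 and 339 CPM, Tgfbr2 at 358 and 345 CPM, Tgfbr1 at 202 and 115 CPM and Smad7 at 58.5 and 90.7 CPM. Mast cells or basophils, only 25 and 6 cells, held Smad7 at 142 and 188 CPM and Tgfbr1 at 193.5 and 251 CPM.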
